A study of Mus musculus with 36 samples.

Results

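The Toll-like receptors of the mouse were followed in whole blood taken 7 days after irradiation. The members were every probe of the array whose gene name was Tlr1, Tlr2, Tlr3, Tlr4, Tlr5, Tlr6, Tlr7, Tlr8, Tlr9 or Tlr13, which gave 12 of 39429 probes and 10 of 31093 gene names. Each gene had 1 probe except Tlr7, which had 3. The mice were C57BL/6J males, 8 to 10 weeks old at exposure, and one-colour arrays were made from the blood of 6 mice in each of 6 groups. Controls were sham-irradiated. The other groups received 3 Gy of x-rays, 3 Gy of a mixed field of x-rays with 5%, 15% or 25% neutrons, or 0.75 Gy from the neutron source without added x-rays, called neutron alone here and labelled 100%. By the labels' percentages the mixed fields held 0.15, 0.45 and 0.75 Gy of neutrons, so the 25% field and neutron alone were matched in neutron dose. Because photons accompany the neutron beam, no group received neutrons only.

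Toll-like receptors are membrane proteins that recognise molecules common to microbes and start inflammatory signalling in innate immune cells and B cells. Tlr1, Tlr2, Tlr4, Tlr5 and Tlr6 sit at the cell surface and bind bacterial lipoproteins, lipopolysaccharide and flagellin, whereas Tlr3, Tlr7, Tlr8, Tlr9 and Tlr13 read nucleic acids inside endosomes. All use the adaptor Myd88 except Tlr3, and the signal runs through Irak kinases and Traf6 to NF-kB and interferon regulatory factors. In blood, transcripts of these genes come from neutrophils, monocytes, B cells and dendritic cells in differing mixtures. In whole blood, fewer cells of a type and less RNA per cell cannot be told apart.

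Probe sequences are shown for the members on which the results turned, because one of the 3 Tlr7 probes opened with a simple repeat that the other Tlr7 probes lacked. The first 30 bases of each probe are given 5′ to 3′ with mm9 positions, and capitals mark an uninterrupted run of alternating T and C.
Tlr7, brighter probe, chrX:163742863-163742922, minus strand: TCTCTCTCTCTgatactgaactgtaccaga
Tlr7, second probe, chrX:163743146-163743205, minus strand: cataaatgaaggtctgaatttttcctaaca
Tlr7, the third probe, chrX:163747214-163747273, minus strand: atgtaatgctgcttctgtatcttaaaaact
Tlr1, chr5:65316115-65316174, minus strand: caagcatggacttttttgggcaaacctaag
Tlr13, chrX:103355773-103355832, plus strand: tgagtaacccttcacctatgttcttgtaag
Tlr9, chr9:106128979-106129038, plus strand: ctggttcccgagttgctctgcctgccttgc
The run of the brighter Tlr7 probe, TCTCTCTCTCT, was 11 bases long. It was present in 24 of the 39429 probes, or 0.0609%. Whether the probes lie in exons or untranslated regions was not examined here, since no mm9 annotation was used.

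All levels below are log2 processed intensities from which the median of the array was subtracted, so they are relative to the other probes of the same array. Levels of different genes should not be ranked against each other, because probes differ in how brightly they report. Tlr1, Tlr2, Tlr6, Tlr9, Tlr13 and the brighter and second Tlr7 probes were well above background on all 36 arrays. The Tlr4 probe was so on 32 arrays, including all 6 controls. Tlr3 was well above background on 2 arrays, Tlr8 on 2, the third Tlr7 probe on 1 and Tlr5 on 0, and these 4 probes were not tested. No member was saturated on any array. Of the 10 genes, 7 passed the background filter, and 6 of these (Tlr1, Tlr2, Tlr4, Tlr6, Tlr7 and Tlr13) also passed a filter that required variation between arrays. A gene that passed the variation filter had to differ between some arrays, so the counts below describe those 6 and not the family. A gene was called when its p was under 0.001 and its adjusted p under 0.05 by limma, fitted on the 12 arrays of each comparison over 15085 genes. Tlr9 and the second Tlr7 probe were read from the same model fitted to all 21484 probes above background.

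The arrays had between 15576 and 21299 probes well above background, and array medians of log2 2.76 to 5.30. The files record 10 slides and 4 scan sessions. Session 1 held 5 controls and 5 x-ray arrays, session 2 held 5 arrays each of the 5% and 15% fields, and session 3 held all arrays of the 25% field and neutron alone. Session 4 held 1 array each of controls, x-rays, 5% and 15%. Scan session and exposure therefore cannot be told apart for the 25% field and neutron alone, either against controls or against x-rays. The 5% and 15% fields share only session 4 with controls and with x-rays.

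**Figure D1:**
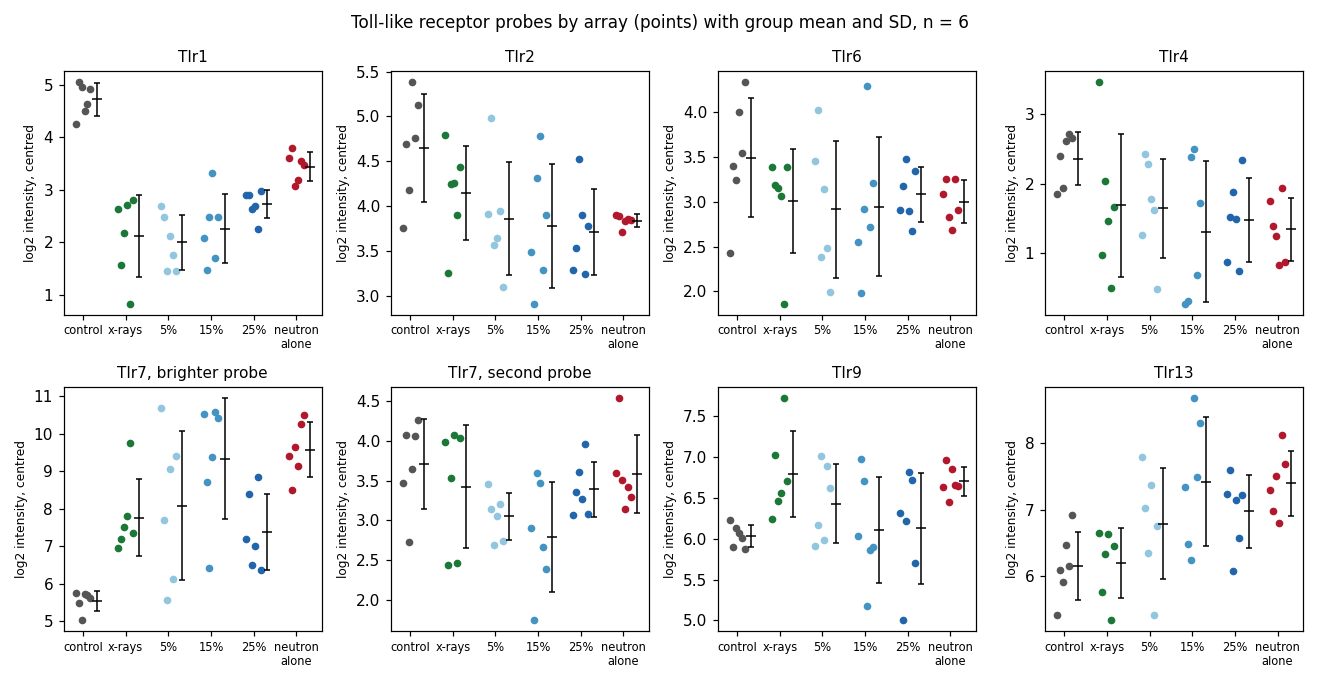
Each panel plots 1 detected Toll-like receptor probe as median-centred log2 intensity (vertical axis) in the 6 groups (horizontal axis). Points are arrays, and the mark with bars is the group mean and SD (n = 6). All 30 exposed arrays lie below the lowest control for Tlr1, while the brighter Tlr7 probe was called higher in 4 exposures and the second in none.

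Tlr1, which pairs with Tlr2 to bind triacylated lipoproteins, fell after every exposure. Its level in controls had a lowest value of 4.25, a median of 4.78 and a highest value of 5.06. After x-rays these values were 0.83, 2.41 and 2.81. No exposed array reached the lowest control.
In the 5% field Tlr1 ran from 1.46 through a median of 1.94 to 2.69, and in the 15% field from 1.47 through 2.28 to 3.32. In the 25% field it ran from 2.25 through 2.79 to 2.97, and after neutron alone from 3.07 through 3.50 to 3.80. The neutron-alone arrays were thus all above those of the x-ray and 25% groups, though they overlapped the 15% group.
By limma, the log2 fold changes against controls were -2.61 (SE 0.33) for x-rays, -2.73 (SE 0.27) for 5%, -2.47 (SE 0.30) for 15%, -2.0 (SE 0.21) for 25% and -1.28 (SE 0.18) for neutron alone, with 6 arrays in each group. They amount to 6.09-, 6.63-, 5.53-, 4.00- and 2.43-fold lower levels, and every one was called, with adjusted p-values of 3.94e-05, 5.21e-06, 2.78e-05, 7.74e-06 and 5.03e-05 from limma. The estimated fall was smallest after neutron alone.
Among the exposed groups, Tlr1 was higher after neutron alone than after x-rays by 1.32 (SE 0.32) on the log2 scale, with adjusted p = 0.00859 by limma, but its unadjusted value missed the threshold and it was not called. It was higher than in the 25% field by 0.72 (SE 0.20, adjusted p = 0.0178 by limma), and that difference was also not called. The 5%, 15% and 25% fields differed from x-rays by -0.12, 0.14 and 0.61 on the log2 scale with adjusted p from limma of 0.871, 0.853 and 0.236, and those groups overlapped.
The Tlr1 difference from x-rays was called without x-ray replicate 4, 5 or 6 (1.44, 1.07 and 1.46). Within session 1 alone, with 5 arrays a group, x-rays lowered Tlr1 by 2.70 on the log2 scale, and this was called by limma (adjusted p = 0.000262). In session 4 the single arrays read 4.97 for the control, 2.81 for x-rays, 1.76 for 5% and 2.49 for 15%, the same order of control above exposed. With scan session as a block, where only these session 4 arrays link the fields to controls, the 5% and 15% changes were -3.21 and -2.48 with limma adjusted p = 0.064 and 0.143, so their calls were lost.

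The other surface receptors tested had smaller estimated changes than Tlr1 in each exposure, though genes were not tested against each other. Tlr2, the shared partner of Tlr1 and Tlr6 and represented by 10 spots, read from 3.75 through a median of 4.73 to 5.39 in controls and from 3.70 through 3.85 to 3.90 after neutron alone. The neutron-alone arrays lay within the lower part of the control range, with 1 of 6 below it. Its log2 fold change was -0.50, -0.79, -0.87, -0.94 and -0.81 for x-rays, 5%, 15%, 25% and neutron alone, and none was called by limma (adjusted p from 0.00968 for neutron alone to 0.182 for x-rays). Without control replicate 1 the neutron-alone difference was -0.99 and called by limma (adjusted p = 0.000885).
Tlr6, which pairs with Tlr2 to bind diacylated lipoproteins, had control values of 2.42, 3.47 and 4.34 (lowest, median, highest). The medians of the 5 exposed groups lay from 2.82 to 3.18. Its log2 fold changes lay between -0.58 and -0.41, none was called (limma adjusted p from 0.133 to 0.267), and every exposed group overlapped the controls.
Tlr4, the receptor for lipopolysaccharide, read 1.85, 2.51 and 2.71 in controls (lowest, median, highest) and 0.84, 1.32 and 1.94 after neutron alone. After neutron alone, 5 of 6 arrays were below every control. That difference was -1.02 (SE 0.23), 2.02-fold, and was called by limma (adjusted p = 0.00205).
After x-rays Tlr4 read 0.50, 1.57 and 3.46 (lowest, median, highest), a range that spanned the controls. The log2 fold changes for x-rays, 5%, 15% and 25% were -0.67, -0.72, -1.05 and -0.89, with 4 of 6 arrays below every control in each, and none was called by limma (adjusted p = 0.168, 0.0848, 0.0461 and 0.0211). Neutron alone differed from x-rays by -0.34 and from the 25% field by -0.13 for Tlr4, neither of them called by limma (adjusted p = 0.566 and 0.774), and it was not compared with the 5% and 15% fields. The neutron-alone call for Tlr4 was kept in 4 of the 12 fits that left out 1 array, being lost without control replicate 2, 4, 5 or 6 or neutron replicate 2, 3, 4 or 6 (-1.03 to -0.92).

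Tlr7, an endosomal receptor for single-stranded RNA, gave disagreeing readings from its 2 detected probes. On the brighter probe the controls read 5.04, 5.66 and 5.75 (lowest, median, highest). The x-ray arrays read 6.96, 7.44 and 9.77, and neutron alone read 8.51, 9.53 and 10.51. Both groups lay wholly above the controls.
The 5% field read 5.56, 8.38 and 10.68, the 15% field 6.42, 9.90 and 10.58, and the 25% field 6.38, 7.10 and 8.84 on the same probe. Only the 5% group overlapped the controls, by 1 array. The log2 fold changes were 2.22 (SE 0.40), 2.54 (SE 0.71), 3.79 (SE 0.59), 1.84 (SE 0.39) and 4.03 (SE 0.30) for x-rays, 5%, 15%, 25% and neutron alone. All were called by limma (adjusted p = 0.000556, 0.000167, 0.00179 and 2.82e-07) except that of the 5% field (adjusted p = 0.0101), which was called without 5% replicate 3 (3.04) or 5 (2.93).
The 25% call was lost without control replicate 3 (1.73, adjusted p = 0.00507 by limma). Neutron alone exceeded the 25% field by 2.19 (SE 0.46, adjusted p = 0.00356 by limma), with 5 of 6 arrays beyond, and these arrays were scanned in 1 session. With slide as a block that difference was 1.35 and not called. With slide as a block the x-ray change was 1.72 and not called (limma adjusted p = 0.038), and with the session block the 15% change was 1.38 and not called.
The second probe did not follow. Controls read 2.72, 3.85 and 4.26 on it (lowest, median, highest), x-rays 2.44, 3.76 and 4.07, and neutron alone 3.15, 3.46 and 4.54. These 3 groups overlapped.
On the same probe the 5% field read 2.69, 3.10 and 3.46, the 15% field 1.75, 2.78 and 3.59, and the 25% field 3.06, 3.31 and 3.96. The log2 fold changes of the second probe were -0.28, -0.66, -0.91, -0.31 and -0.12, none of which was called by limma (adjusted p = 0.520, 0.0617, 0.0419, 0.358 and 0.733). Across the 36 arrays the 2 probes had a Pearson r of -0.28, given as a description of arrays that share groups and scaling. The third Tlr7 probe read at most -2.15 in controls and was well above background on a single 25% array.

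The repeat at the start of the brighter Tlr7 probe went with the same behaviour in unrelated genes. All 23 other probes that hold the 11-base run passed the background filter, against 54.5% of all probes. Their Pearson r with the brighter Tlr7 probe over the 36 arrays had a median of 0.92 and a range of -0.27 to 0.99, while the median over the 21460 remaining probes was -0.06.
Of these 23 probes, 18 were called higher after x-rays, 7 in the 5% field, 19 in the 15% field, 9 in the 25% field and 21 after neutron alone. In the 15% field 1 of the 23, a probe of Ikzf4, was called lower (-1.40), and it was below 0 in the other exposures too (-0.72 to -0.51). The shares of all probes called higher by the same rule were 11.6%, 8.11%, 11.1%, 9.69% and 13.9%. Their median log2 fold changes were 2.45, 1.97, 2.88, 1.54 and 3.38. Between neutron alone and the 25% field, 16 of the 23 were called higher, against 3.48% of all probes.
The genes nearest to the brighter Tlr7 probe by Pearson r over the 36 arrays were Wfdc13 (r = 0.995) and Srpx2 (r = 0.994), and the probes of both open with a run of 10 alternating bases, in capitals here.
Wfdc13, chr2:164513128-164513187, plus strand: CTCTCTCTCTggatcagcttgctcatcatt
Srpx2, chrX:130466293-130466352, plus strand: CTCTCTCTCTagactcttcccaaagccttt
Where a gene had a probe with the run and others without it, most others did not move with it after neutron alone. For Map3k5 the probe with the run changed by 4.09 and the other by -0.33 on the log2 scale. For Pi4k2a these values were 4.02 and -0.60, for Rgs20 3.27 and 0.06, and for Fmo5 2.76 and -0.53. Exceptions, where a probe without the run was also called higher, were Adra1b (1.65), 1 of 3 Smarcc1 probes (1.44) and 1 of 2 Gm10845 probes (1.24).
The part of the repeat in the Tlr7 reading was not tested, since the arrays hold no way to remove it from the probe. The change in Tlr7 RNA is therefore given as 2 disagreeing readings. With all probes that hold the run left out, an alternative chosen after seeing the data, Tlr7 had 0 calls by limma against controls. This follows from the construction, since the second probe then stood for the gene, and it adds no further evidence.

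**Figure D2:**
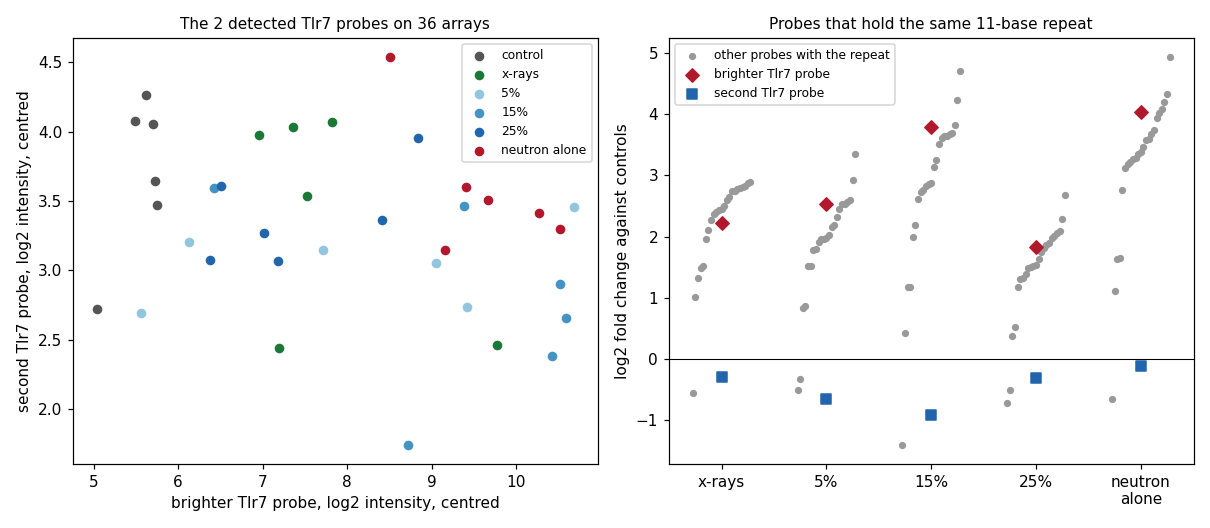
Left, median-centred log2 intensity of the brighter Tlr7 probe (horizontal axis) and the second probe (vertical axis) on the 36 arrays, coloured by group. Right, log2 fold change against controls (vertical axis) in the 5 exposures for both Tlr7 probes and, as grey points, the 23 other probes with the 11-base run, most of which lie near the brighter probe and above the second.

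Tlr9, the endosomal receptor for unmethylated CpG DNA, varied too little between arrays for the gene-level test. Over all probes it read 5.87, 6.04 and 6.23 in controls (lowest, median, highest), 6.25, 6.63 and 7.72 after x-rays and 6.46, 6.65 and 6.97 after neutron alone. Both exposed groups lay above all controls. The log2 fold change after neutron alone was 0.67 (SE 0.13), 1.59-fold, and was called by limma (adjusted p = 0.000545), though not with a replicate block (adjusted p = 0.00357), in a single model over 36 arrays or in the deposited table. This stood beside 33.6% of all probes called in that comparison. For x-rays, 5%, 15% and 25% the shares of all probes called were 27.6%, 21.3%, 26.5% and 23%.
After x-rays the Tlr9 change was 0.76 (SE 0.23, adjusted p = 0.0141 by limma) and was not called. In the 5%, 15% and 25% fields Tlr9 changed by 0.40, 0.08 and 0.10 on the log2 scale, with groups that overlapped the controls and no call by limma (adjusted p = 0.177, 0.837 and 0.800). Under normexp background correction the Tlr9 change was negative in every exposure (-1.31 to -0.09), where the median over all genes was also negative (-1.21 to -0.18).
Tlr13, the endosomal receptor for a bacterial ribosomal RNA motif, rose after neutron alone. Controls read 5.41, 6.12 and 6.92 (lowest, median, highest), x-rays 5.34, 6.39 and 6.64, and neutron alone 6.79, 7.40 and 8.13. Of the neutron-alone arrays 5 of 6 were above every control, and all were above every x-ray array.
The mixed fields gave Tlr13 values of 5.42, 6.89 and 7.80 at 5%, 6.24, 7.41 and 8.68 at 15% and 6.07, 7.18 and 7.60 at 25% (lowest, median, highest). The log2 fold changes against controls were 0.04, 0.63, 1.26, 0.82 and 1.24 for x-rays, 5%, 15%, 25% and neutron alone. Only the last (SE 0.27, 2.36-fold) was called by limma (adjusted p = 0.00152), the 15% and 25% fields having adjusted p = 0.0201 and 0.0374.
Tlr13 was higher after neutron alone than after x-rays by 1.20 (SE 0.29), with adjusted p = 0.00801 by limma, but its unadjusted value narrowly missed the threshold and it was not called. It differed from the 25% field by 0.42 (limma adjusted p = 0.305). The neutron-alone call of Tlr13 against controls was kept in 5 of the 12 fits that left out 1 array. It was lost without control replicate 1, 2, 3 or 5 or neutron replicate 3, 5 or 6 (1.09 to 1.24). Normexp background correction turned the value to -0.44, where the median over all genes was -1.19.

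Tlr3, the receptor for double-stranded RNA, Tlr5, the flagellin receptor, and Tlr8, an endosomal receptor close to Tlr7, were not measurable here. Tlr3 had group medians between -2.37 and -1.36, Tlr5 between -2.27 and -1.38 and Tlr8 between -2.39 and -1.38, and their probes were not well above background in most arrays. A difference in these genes was not detectable at this signal.

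Over the 6 genes tested, 2 were called after x-rays (Tlr7 higher, Tlr1 lower), where 29.8% of all 15085 genes were called by limma. In the 5% field 1 was called (Tlr1 lower; 23.1% of all genes), and in the 15% field 2 (Tlr7 higher, Tlr1 lower; 29.1%). In the 25% field 2 were called (the same pair; 24.8%) and after neutron alone 4 (Tlr7 and Tlr13 higher, Tlr1 and Tlr4 lower; 36.6%). With 6 genes, no excess over these shares is read from the counts. With probes that hold the TC run left out, the counts were 1, 1, 1, 1 and 3, Tlr7 being the gene lost each time it had been called. That loss was fixed in advance, because the second Tlr7 probe then stood for the gene. The median log2 fold change of the 6 was -0.49, -0.65, -0.71, -0.65 and -0.65, beside -0.11, -0.08, -0.02, -0.12 and -0.12 over all genes tested. The 5 comparisons share the same 6 controls.
Against x-rays, 0 of 6 were called by limma in any field or after neutron alone, where 0%, 4.09%, 2.61% and 12.9% of all genes were called for 5%, 15%, 25% and neutron alone. A looser threshold, unadjusted limma p under 0.05, was passed at 15% by the brighter Tlr7 probe and Tlr13 (adjusted p = 0.150 and 0.0795). Tlr13 passed it at 25% (limma adjusted p = 0.130). Tlr1, the brighter Tlr7 probe and Tlr13 passed it after neutron alone. The second Tlr7 probe differed from x-rays by -0.63 at 15% and 0.16 after neutron alone (limma adjusted p = 0.329 and 0.761). The share of all genes under the looser threshold was not counted. Between neutron alone and the 25% field, matched in neutron dose, 1 of 6 was called (Tlr7 on its brighter probe; 11.4% of all genes).

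**Figure D3:**
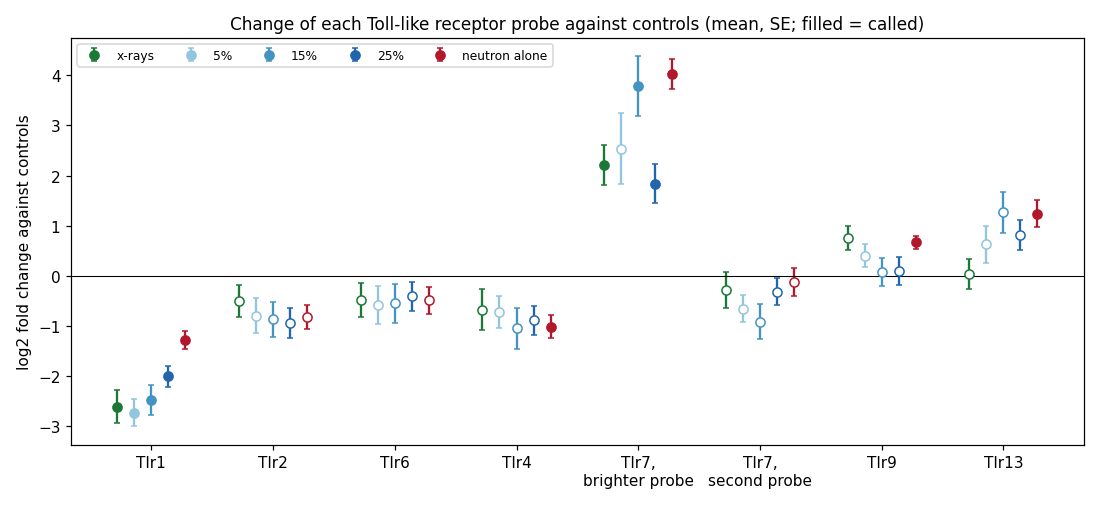
Log2 fold change against controls (vertical axis) of the 8 detected Toll-like receptor probes (horizontal axis) in the 5 exposures, as mean and SE. Filled points were called, and Tlr1 is filled and negative in all 5.

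The genes whose level followed each member most closely over the 36 arrays are given by Pearson r as a description. For Tlr1 they were Gpr174 (0.967) and Icosl (0.963), for Tlr13 Lgals3 (0.958) and Hpcal1 (0.938), and for Tlr6 Tpd52 (0.906) and Lilra6 (0.903). For Tlr2 they were Sbno2 (0.902) and the unnamed transcript NAP112100-1 (0.880), and for Tlr4 Gpr137b-ps (0.883) and Spata6 (0.877). Among the members, Tlr2 and Tlr4 had r of 0.79, Tlr2 and Tlr6 0.77 and Tlr4 and Tlr6 0.70. Pairs with a negative r included Tlr4 and the brighter Tlr7 probe (-0.61), Tlr6 and Tlr9 (-0.60), and Tlr13 and Tlr9 (-0.50). These values are over the same 36 arrays, which share groups and scaling.

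Markers of blood cell types were read beside the members. Of all genes, 16.9% were called lower after x-rays, 14% at 5%, 16.5% at 15%, 13.9% at 25% and 20.5% after neutron alone. The shares called higher were 12.9%, 9.04%, 12.6%, 10.9% and 16.1%, and both sets stand beside the marker counts against controls below. All 8 B cell markers, among them Cd79a, a signalling chain of the B cell receptor, fell by limma after x-rays and in each mixed field, and 7 of 8 fell after neutron alone. Their median log2 fold change was -4.31, -3.71, -4.18, -4.30 and -1.41, in the order of exposures above. The log2 of their summed intensity was 10.99 to 11.84 in controls, 5.53 to 9.20 after x-rays, 6.58 to 8.36 at 5%, 5.77 to 8.34 at 15%, 6.65 to 8.46 at 25% and 9.75 to 10.20 after neutron alone. The fall was thus smaller after neutron alone, as it was for Tlr1. Between neutron alone and the 25% field 7 of 8 were called higher by limma, against 4.02% of all genes. The part of B cells in the Tlr1 result was not tested.
Of the plasmacytoid dendritic cell markers, such as Siglech and Ccr9, 2, 3, 3, 3 and 3 of 7 tested were called lower. The summed level of all 7, in which brighter markers weigh more, was 8.11 to 8.51 in controls and 7.34 to 7.77 after neutron alone. Its median was 8.22 in controls, 6.58 after x-rays, 6.80 at 5%, 6.28 at 15%, 7.13 at 25% and 7.63 after neutron alone. By these medians the fall of the sum was smallest after neutron alone, as it was for Tlr1 and the B cell markers. The part of plasmacytoid dendritic cells in the Tlr1 result was not tested. The markers called lower were Spib, Tcf4 and Ccr9, of which B cells also express the first and second. Siglech was not among them. Of the conventional dendritic cell markers, such as Flt3 and Zbtb46, 0, 0, 0, 0 and 1 of 4 tested was called, higher, with summed levels of 5.27 to 6.47 in controls and 5.81 to 6.82 after neutron alone.
Monocyte markers were called higher for 0, 1, 0, 0 and 2 of 10, the pair after neutron alone being Csf1r (0.82) and Cx3cr1 (1.30), where 16.1% of all genes were called higher. The summed monocyte level was 9.64 to 10.68 in controls and 10.54 to 11.13 after neutron alone. The part of monocytes in the Tlr13 and Tlr9 results was not tested. Neutrophil markers such as S100a8 and S100a9 were called lower for 0, 0, 1, 1 and 1 of 7, where 20.5% of all genes were called lower after neutron alone, with summed levels of 11.30 to 13.85 in controls and 12.28 to 14.06 after neutron alone. Their part in the Tlr2 and Tlr4 results was not tested.
Of T cell markers (Cd3e, Cd3d and others) 1, 3, 3, 2 and 0 of 8 were called lower, and of NK cell markers (Ncr1, Klrd1 and others) 0 of 6 in every exposure. The shares of all genes called lower were 16.9%, 14%, 16.5%, 13.9% and 20.5%, and no excess is read from the T cell counts. Red cell markers such as Hba-a1 and Alas2 were called higher for 4, 4, 4, 3 and 6 of 6, and platelet markers such as Pf4 and Ppbp for 0, 0, 3, 3 and 1 of 6. The shares of all genes called higher were 12.9%, 9.04%, 12.6%, 10.9% and 16.1%. Summed red cell levels were 15.50 to 15.78 in controls and 16.47 to 17.18 after neutron alone. Markers of each of these cell types were measured in controls, as the labelled tissue, blood, would hold. Runx2 and Xcr1 did not pass the background filter, and Ly6g was not found on the array by name.

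**Figure D4:**
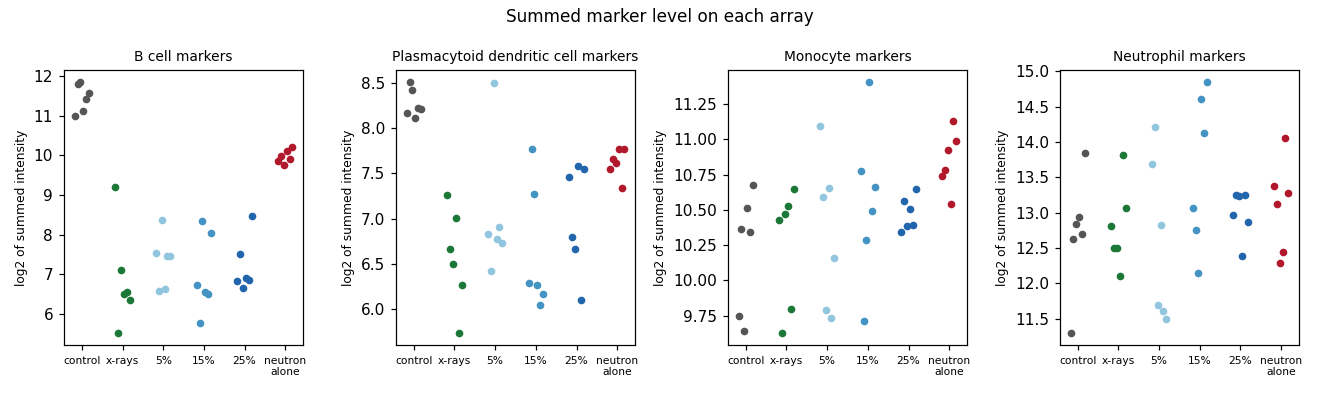
Log2 of the summed intensity of B cell, plasmacytoid dendritic cell, monocyte and neutrophil markers (vertical axis) on every array, by group (horizontal axis). The other cell types are not drawn. B cell sums separate controls, neutron alone and the other exposures, while monocyte and neutrophil sums overlap.

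The rest of the pathway was read from lists of genes by role. A list of coreceptors and trafficking factors also held Tlr11 and Tlr12, endosomal receptors for profilin that were not among the members. Of its 17 genes 14 were tested, and 2, 1, 1, 1 and 2 were called higher and 2, 2, 2, 3 and 3 lower, in the order x-rays, 5%, 15%, 25% and neutron alone. The matching shares of all genes were 12.9%, 9.04%, 12.6%, 10.9% and 16.1% higher and 16.9%, 14%, 16.5%, 13.9% and 20.5% lower. Unc93b1, which carries Tlr3, Tlr7, Tlr9 and Tlr13 to endosomes, had log2 fold changes of -1.25, -1.47, -1.48, -1.40 and -0.86. Slc15a4, an endosomal transporter needed for Tlr7 and Tlr9 signalling, changed by -1.64, -1.28, -1.31, -1.31 and -0.67. Ctsb, a lysosomal protease, rose by 1.92, 1.89, 2.22, 1.79 and 2.16, and all 15 changes were called by limma. Tlr11 had log2 fold changes of 0.72, 0.69, 0.39, 0.54 and 0.16 and Tlr12 of -0.48, 0.12, 0.58, 0.32 and -0.12, none of them called.
Of the adaptors, 2 of 6 were tested (Myd88 and Tirap) and 0 were called by limma in any exposure. Myd88, used by most Toll-like receptors, had log2 fold changes of -0.48, -0.28, 0.34, -0.0077 and 0.21, and Tirap, which links Myd88 to surface receptors, of -0.63, 0.16, 0.33, 0.013 and -0.35.
Among kinases and ubiquitin ligases 18 of 20 were tested, of which 5, 2, 5, 3 and 6 were called higher and 6, 4, 4, 4 and 3 lower. Traf6, the ubiquitin ligase that passes the Myd88 signal on, changed by -1.11, -1.71, -1.82, -1.76 and -1.24. Map3k8, a kinase upstream of the mitogen-activated protein kinases, changed by -1.35, -1.78, -1.78, -1.56 and -0.99. Ube2n, the ubiquitin-conjugating enzyme that works with Traf6, rose by 1.59, 1.61, 1.65, 1.84 and 0.78. Each of these was called in all 5 exposures.
Of the transcription factors, 9 of 12 were tested, with 0, 0, 0, 0 and 1 called higher and 4, 3, 3, 5 and 2 lower. Nfkb2, a subunit of the non-canonical NF-kB pathway, changed by -2.11, -2.58, -2.73, -2.35 and -1.41, all called. Its partner Relb changed by -1.49, -1.46, -1.20, -1.29 and -0.67, the last not called, and Irf5, an interferon regulatory factor downstream of Myd88, by -0.89, -1.12, -1.42, -0.86 and -0.42, the first and last not called. Irf7, which drives interferon genes after Tlr7 and Tlr9, was named after its values were seen. It was the factor called higher, by 0.97 after neutron alone (limma adjusted p = 0.000917), and it was called lower in the 25% field (-0.89).
Inhibitors had 12 of 15 tested, with 1, 0, 0, 0 and 1 called higher and 8, 8, 7, 7 and 8 lower. Nfkbie and Nfkbia, which hold NF-kB in the cytoplasm, changed by -1.79, -2.19, -2.62, -1.98 and -1.39 and by -1.56, -1.51, -1.81, -1.62 and -1.18. Sigirr, a receptor that restrains Toll-like receptor signalling, changed by -1.43, -1.43, -1.70, -1.34 and -1.50. All of these were called. Usp25, a deubiquitinase named after its values were seen, was the member called higher, after x-rays (1.74) and neutron alone (1.57). Nfkbia and Nfkbie are also known as direct targets of NF-kB.
Of the induced targets, 15 of 24 were tested and 0, 1, 0, 1 and 0 were called higher and 1 lower in each exposure. The target called lower was Cd40, a costimulatory receptor of B cells and antigen-presenting cells, with log2 fold changes of -3.56, -2.48, -2.54, -2.61 and -0.69 in turn. The target called higher was Saa3, an acute-phase protein, named after its values were seen, by 4.35 in the 5% field and 3.45 in the 25% field.

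**Figure D5:**
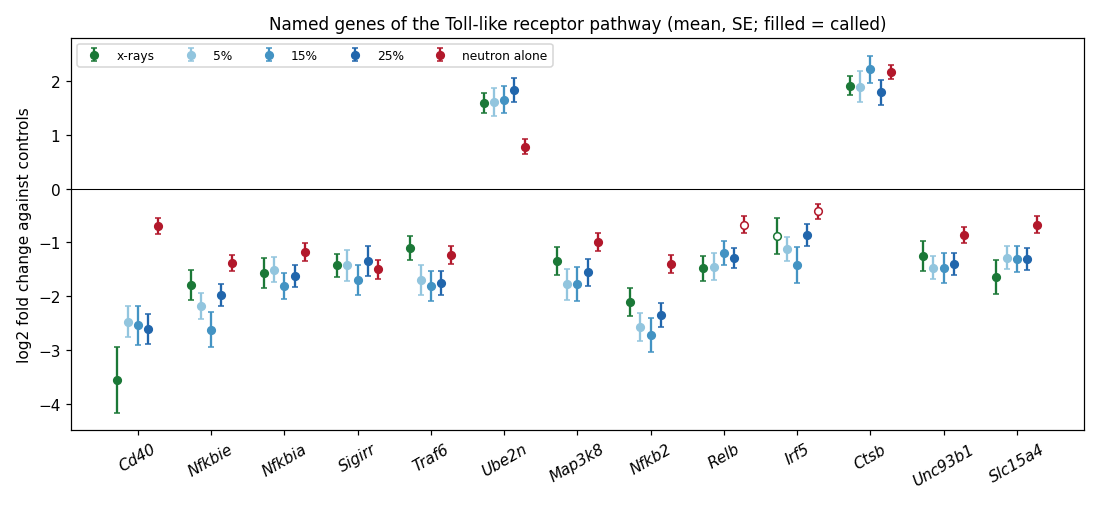
Log2 fold change against controls (vertical axis) of the 13 pathway genes named by rule (horizontal axis) in the 5 exposures, as mean and SE. Filled points were called; Ctsb and Ube2n lie above 0 and the other genes below it.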

How the data were processed

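Blood RNA was collected in PAXgene tubes and globin-reduced by the authors, hybridised to one-colour Agilent 4x44K v2 arrays and read with Agilent Feature Extraction 12.0.2. The deposited scanner files hold processed signal intensity per spot, already background-subtracted, and the deposited series table holds log2 values normalized by the authors, used as an alternative. The intensities were put on the log2 scale. Replicate spots were reduced to 1 mean per probe, omitting those flagged as non-uniform, and the array median was then subtracted. Probes above background on more than 75% of arrays were kept (21484 of 39429), then those at least 1.5-fold from their median on 20% of arrays (17963), and the brightest probe stood for a gene (15085 genes). The filters follow the study's methods, which also average probes of a gene, here an alternative, and the number of genes left differs from the study's. limma 3.58.1 in R 4.3.3 was fitted on the 12 arrays of each comparison, with Benjamini-Hochberg adjustment, and tested on simulated data. Groups and replicate numbers came from the labels, and each array is 1 mouse. The members and the gene lists were chosen with earlier results of these data known. Named pathway genes were, per list, up to 3 called in 1 direction in at least 3 exposures with the largest mean change. Probe signals carry no read depth, so the number of arrays limits the precision. The alternatives tried were other scalings, background correction, filters, probe summaries, blocks, a single model, the deposited table and leaving out arrays. The values of 1 marker gene are not reported here.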

Additional observations from a re-analysis of the deposited data

Results flagged for a closer look

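Of 48 groups of 6 arrays tested for a single outlying value by Dixon's ratio, 5 passed its 95% critical value, where chance gives about 2.4. On the brighter Tlr7 probe, control replicate 3 was low (5.04, ratio 0.630) and x-ray replicate 5 was high (9.77, ratio 0.693). X-ray replicate 5 had the lowest array median of its group (log2 2.94) and was also low for Tlr6 (1.86, ratio 0.788). Neutron replicate 3 was low for Tlr2 (3.70, ratio 0.643), and neutron replicate 2 was high for the second Tlr7 probe (4.54, ratio 0.673).

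The effect of neutron alone and of the 25% field differed for the brighter Tlr7 probe by 2.19 on the log2 scale, by limma's direct test of the 2 groups (adjusted p = 0.00356), and by 0.19 for the second probe (adjusted p = 0.609).

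Among members left out of the tests, the third Tlr7 probe reached 2.92 on 1 array of the 25% field, where no control exceeded -2.15. Tlr8 reached 0.17 on 1 x-ray array and 0.25 on 1 neutron-alone array, where no control exceeded -1.65.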

How the results depend on the processing

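Tlr1 stayed lower than controls in every exposure under all alternatives run, but its calls at 5% and 15% were lost with slide or session as a block, and calls of other receptors also depended on the setting. After x-rays, 2 receptors were called, against 1 under normexp background correction, a single model over 36 arrays, probes of a gene averaged, slide as a block, and with probes that hold the TC run left out. In the 5% field 1 was called, against 2 with adjusted p alone or a single model and 0 with slide or scan session as a block. In the 15% field 2 were called, against 4 with adjusted p alone, 1 without the TC run and 0 with slide or session as a block. In the 25% field 2 were called, against 5 with adjusted p alone and 1 under normexp, a single model, averaged probes, without the TC run, or without the fourth session. After neutron alone 4 were called, against 1 under normexp and 2 with a single model, slide as a block, or the replicate block. Between neutron alone and x-rays 0 were called, against 3 with adjusted p alone or a stricter background filter and 2 under 75th percentile, common-probe or quantile scaling. In that comparison 1 was called with a single model, the replicate block, the deposited table, no fold filter, averaged probes, slide as a block, every probe, and without the fourth session. Between neutron alone and the 25% field 1 was called, against 2 with adjusted p alone and under 75th percentile, common-probe or quantile scaling, and 0 under normexp, a single model, slide as a block, and without the TC run.

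Leaving out 1 array at a time, the counts were 2 to 2 for x-rays, 1 to 2 for 5%, 2 to 2 for 15%, 1 to 2 for 25% and 2 to 4 for neutron alone against controls, 0 to 2 for neutron alone against x-rays and 1 to 1 against the 25% field. The neutron-alone count was 2 without control replicate 2 or 5 or neutron replicate 3 or 6. The count against x-rays was 2 without x-ray replicate 5. In the same fits Tlr13 after x-rays ran from -0.11 to 0.21 on the log2 scale, Tlr9 at 15% from -0.10 to 0.26 and Tlr9 at 25% from -0.041 to 0.32.

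Among single receptors, normexp turned Tlr13 to -0.76 (x-rays), -1.17 (5%) and -0.44 (neutron alone) against controls and to -0.59 for neutron alone against 25%. It turned Tlr9 to -0.089, -1.31, -0.094, -0.53 and -0.88 in the 5 exposures. The median over all genes under normexp was -0.78, -1.21, -0.18, -0.56 and -1.19 in the same order. Tlr9 at 15% was -0.068 under quantile scaling, -0.22 in the deposited table and -0.023 without the fourth session, and at 25% it was -0.046 and -0.092 under the first and second of these. Tlr7 without probes that hold the TC run was -0.28, -0.66, -0.91, -0.31 and -0.12, which are the values of its second probe. The second Tlr7 probe was 0.061, 0.010 and 0.067 after x-rays and 0.15, 0.069 and 0.16 after neutron alone under 75th percentile, common-probe and quantile scaling. Tlr13 after x-rays was -0.037 with slide as a block and -0.065 without the fourth session. With slide or session as a block, which leaves 1 array a group to link the 5% and 15% fields to controls, Tlr13 was -0.49 and the second Tlr7 probe 0.49 at 5%, and at 15% Tlr2 was 0.13, Tlr4 0.44 and the second Tlr7 probe 0.87. Apart from what the construction of an alternative shows, the cause was not tested. The TC-run and fourth-session alternatives were chosen after seeing the data.

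By mean correlation, arrays with the same replicate number were little more alike than others. The mean correlation of deviations from group means was 0.04 over 90 pairs of the same number and -0.01 over 450 others. Pairs of the same number ran from -0.75 to 0.74, so these means do not settle whether the numbers pair the mice. With the replicate block the neutron-alone calls of Tlr13 (1.24), Tlr4 (-1.02) and Tlr9 (0.67) were lost, Tlr7 against x-rays (1.82) gained a call, and the count of all genes called went from 4500 to 2906 for x-rays and from 3483 to 2101 for 5% against controls, and from 394 to 1314 for 25% against x-rays.

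Over all genes, 75th percentile scaling shifted the median log2 fold change against controls by 0.55, 0.27, 0.32, 0.23 and 0.41 and normexp by -0.66, -1.14, -0.16, -0.44 and -1.08. The genes called against controls fell under normexp from 4500 to 389, 3483 to 265, 4390 to 788, 3737 to 452 and 5522 to 357. Of the genes called, 43.3% were higher after x-rays and 44% after neutron alone, against 62.6% and 62.2% under 75th percentile scaling and 7.2% and 0.84% under normexp. Calls at 5% and 15% fell to 89 and 134 with session as a block, and those of neutron alone to 3474 in a single model. Signal over background limited Tlr3, Tlr5 and Tlr8. Tlr4 passed the background filter, but under normexp it did not pass the variation filter and was left untested.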
